A study of Mus musculus with 12 samples.

Results

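The 8 genes Slc37a1, Rsph1, S100a6, Pogk, Rem2, Sspn, Rapgef5 and Fbxw2 were followed over 12 arrays of mouse bone marrow B cells that differed in a Myc and a TTP transgene. They were chosen by their differences with TTP in earlier results of these same arrays, mainly between mice with both transgenes and mice with Myc alone. They are 8 of 18194 genes named by the array and 8 of 10287 genes with enough signal to be tested. The array carries 19 probe sets for them, 15 of which lay above a log2 intensity of 4, the detection floor used here, on at least 3 arrays. All 8 genes passed that filter with their main probe set, the one with the highest mean over the arrays, which was above the floor on all 12 arrays for each of them. These main probe sets are 1426601_at (Slc37a1), 1417643_at (Rsph1), 1421375_a_at (S100a6), 1447864_s_at (Pogk), 1448860_at (Rem2), 1417644_at (Sspn), 1455840_at (Rapgef5) and 1436487_x_at (Fbxw2).

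The arrays fall into 4 groups of 3 biological replicates, all from littermates aged 4 to 6 weeks on a background that is 94% C57BL/6. The 4 genotypes are wild type, the Eµ-TTP-1 transgene alone (called TTP here), the Eμ-Myc transgene alone (Myc), and both (Eμ-Myc;Eµ-TTP-1, called Myc TTP), and both groups with Myc are described as precancerous. Eµ is the immunoglobulin heavy chain enhancer, which drives both transgenes in the B lineage. B220 (CD45R) is found on the surface of B-lineage cells. Cells bearing it were pulled from the marrow with magnetic microbeads, and the total RNA of each sample went onto 1 Affymetrix MOE430 2.0 array. The labels do not give the sex of the mice, how many founder lines were used or whether marrows were pooled.

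TTP (tristetraprolin, encoded by Zfp36) is an RNA-binding protein that attaches to AU-rich elements in mRNAs and recruits the enzymes that shorten their poly(A) tails, so that the mRNAs decay faster. Myc is a transcription factor that pairs with Max, binds E-box sequences and drives growth and division, and mice that overexpress it in B cells develop lymphoma. The 8 genes form no pathway. They encode a sugar-phosphate exchanger (Slc37a1), a protein of motile cilia (Rsph1), a calcium-binding protein (S100a6), a calcium-channel regulator of the Ras superfamily (Rem2), an activator of Rap GTPases (Rapgef5), a DNA-binding protein (Pogk), a membrane protein of the dystrophin complex (Sspn) and a substrate receptor of a ubiquitin ligase (Fbxw2).

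The name given to this set, genes that differ with TTP under Myc, describes the values of the main probe sets and not a test. It is weakest for Fbxw2, which was separated by a very small gap and had another probe set separated the opposite way. Nor is the difference particular to Myc for Sspn, Rapgef5 and the main probe set of Fbxw2. With TTP they differed by -0.86, 0.45 and -0.63 without Myc, and by -0.73, 0.68 and -0.33 with Myc. All 8 main probe sets had 3 Myc TTP values that did not overlap the 3 Myc values, 5 of them higher and 3 lower. Of all tested genes, 32.3% were higher in this way and 1.41% lower, and since the members were chosen on this comparison nothing is read from their count. The limma test across all genes called 0 of 10287 genes in Myc TTP over Myc (0%), where 1966 genes had a raw p below 0.05 and the smallest adjusted p was 0.139 (Benjamini-Hochberg). Without limma's moderation of the variances, 16 genes were called. With the 4 arrays numbered 3 left out, which stand apart as described below, 1514 genes were called, and 28 were called without Myc 3 alone. The median difference of all genes was 0.27 log2 units in favour of Myc TTP, and after the arrays were set to a common median the groups did not overlap for 7.04% of genes upward and 8.41% downward. All 8 members kept their direction under that setting. In order of p in this comparison the members stood at rank 2 (Slc37a1), 3 (Rsph1), 7 (Pogk), 64 (S100a6), 111 (Rapgef5), 169 (Rem2), 788 (Sspn) and 3057 (Fbxw2).

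Several properties of the arrays bear on every value below. Myc intensity was 8163 to 15451 on the Myc arrays and 3617 to 10551 on the Myc TTP arrays, but the arrays labelled wild type 3 and TTP 3 gave 6411 and 11360, against 805 to 1343 on the other wild-type and TTP arrays. Zfp36 was 878 to 1663 without Myc, 623 to 1022 on the Myc arrays and 177 to 579 on the Myc TTP arrays, so it was not higher with the TTP transgene, and whether its probe set can detect the transgene is not known here. On 4 arrays, which are the 4 numbered 3, Xist was above the floor together with a Y-linked gene. All 12 measured B-lineage markers were above the floor. Markers of other marrow cells were detected too: the summed intensity of 14 granulocyte genes was 242716 to 338425 on wild-type, 190707 to 387320 on TTP, 9540 to 226946 on Myc and 111182 to 168229 on Myc TTP arrays. For 7 erythroid genes the sums were 3887 to 9695, 2640 to 19978, 149 to 4064 and 439 to 3489 in the same order. In bulk RNA of this kind, fewer cells of a type and less RNA per cell cannot be told apart.

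**Figure D1:**
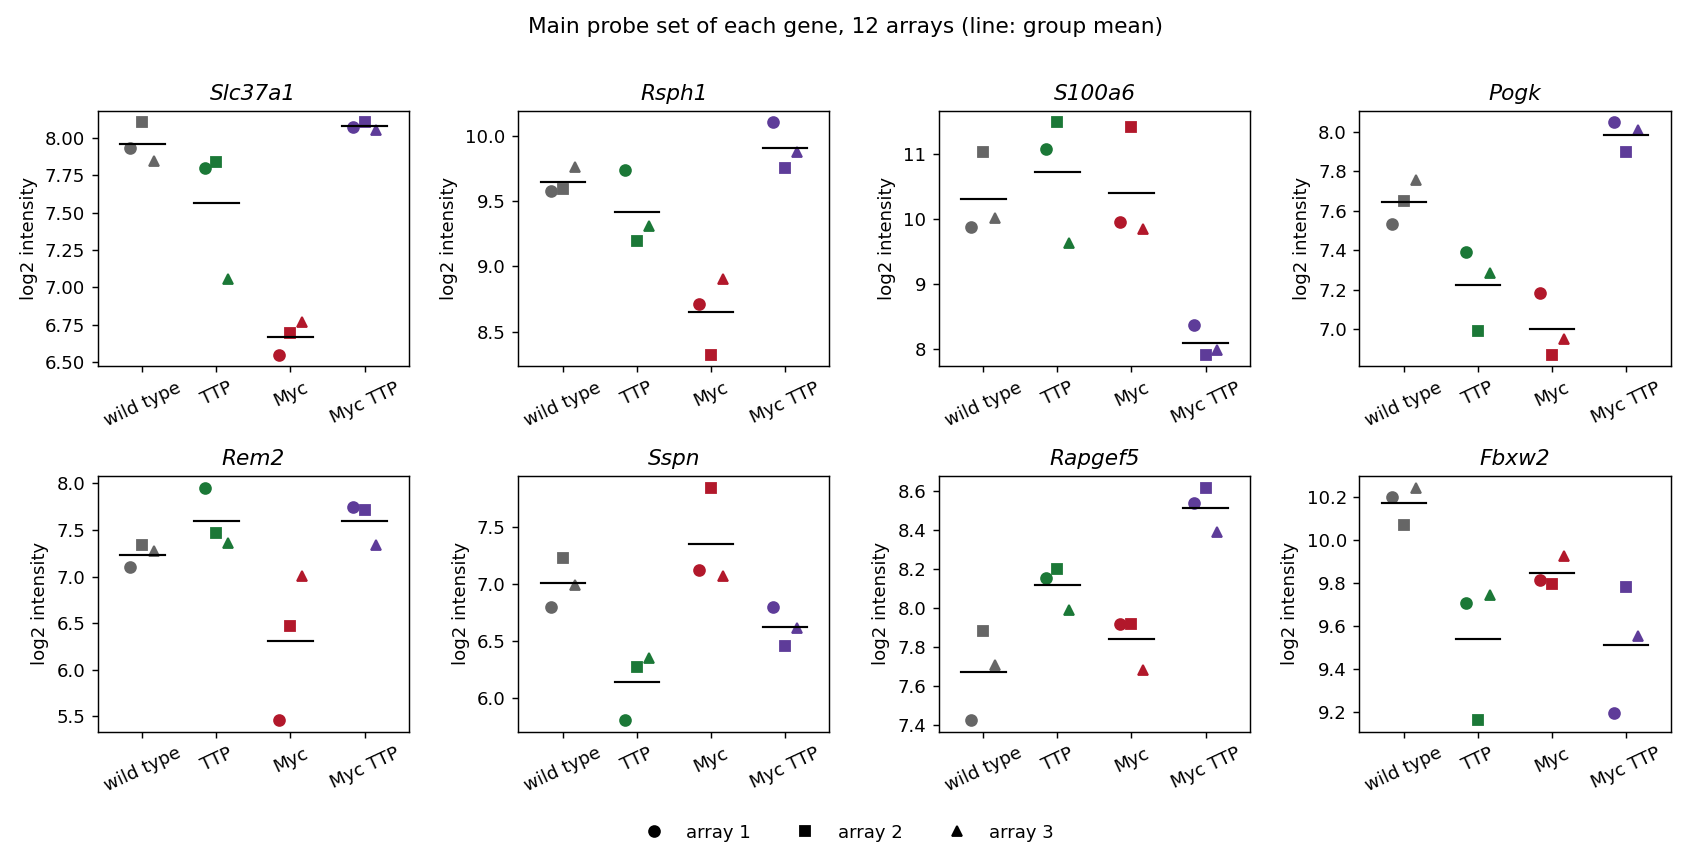
Log2 intensity (y axis) of the main probe set of each of the 8 genes on the 12 arrays, by group (x axis), with the replicate number as the marker shape and the group mean as a line. The y axes differ between panels and do not start at 0. Slc37a1, Rsph1 and Pogk are lowest in Myc and highest in Myc TTP, S100a6 is low in Myc TTP alone, and Sspn, Rapgef5 and Fbxw2 are displaced the same way in both groups with TTP.

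Slc37a1 encodes a transporter of the endoplasmic reticulum membrane that exchanges glucose 6-phosphate for phosphate. Wild-type mice had log2 intensities of 7.94, 8.10 and 7.84, TTP mice 7.80, 7.84 and 7.05, Myc mice 6.55, 6.69 and 6.77, and mice with both transgenes 8.07, 8.10 and 8.06. The Myc arrays were thus the lowest of the 12, and the Myc TTP arrays lay within the range of wild type. The difference of Myc TTP over Myc was 1.41 ± 0.21 (standard error of the fit), or 2.65-fold, and 1.14 with a common array median. Myc over wild type was -1.29 ± 0.21, a comparison that uses the same Myc arrays. Without Myc, the TTP arrays were on the other side, at -0.40 ± 0.21 relative to wild type, and this shrank to -0.14 when TTP 3 was left out. These groups were separated only by the gap between 7.8353 on TTP 2 and 7.8419 on wild type 3.

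Rsph1 encodes a component of the radial spoke head, the structure that links the central and outer microtubules of motile cilia and sperm tails. It read 9.58, 9.60 and 9.77 in wild type, 9.74, 9.20 and 9.31 with TTP, 8.71, 8.32 and 8.91 with Myc, and 10.11, 9.76 and 9.88 with both. As for Slc37a1, the 3 Myc arrays were the lowest, while TTP and wild type overlapped. Myc TTP over Myc was 1.27 ± 0.19, Myc over wild type -1.0015 ± 0.19, and TTP over wild type -0.23 ± 0.19.

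Rsph1 and Slc37a1 are next to each other on chromosome 17 in the RefSeq gene table of assembly GRCm38.p6, with 0 protein-coding genes between them. Their neighbours were then looked at, a choice made after the values of the pair were seen. On the Rsph1 side, Ubash3a, a suppressor of T-cell receptor signalling, was -1.95 ± 0.53 in Myc over wild type and 1.57 ± 0.53 in Myc TTP over Myc. Tmprss3, a transmembrane serine protease, was -2.93 ± 0.81 and 2.02 ± 0.81 in the same comparisons. These neighbours had the same signs as the pair, with larger differences and larger errors. The signs were common over the array, and both comparisons use the Myc arrays. Of all genes 41.3% were separated downward in Myc over wild type, and 32.3% upward in Myc TTP over Myc. The medians of all genes were -0.21 and 0.27. Beyond them Tff1, a trefoil peptide, was -0.26 ± 0.24 and 0.46 ± 0.24, and Abcg1, a cholesterol exporter, -1.38 ± 0.41 and 0.67 ± 0.41. On the Slc37a1 side the signs varied. Wdr4, a subunit of a tRNA methyltransferase, was 1.33 ± 0.47 and 0.52 ± 0.47, and the splicing factor U2af1 0.31 ± 0.15 and 0.24 ± 0.15. Ndufv3, a subunit of respiratory complex I, was -0.15 ± 0.23 and 0.09 ± 0.23, and the homeobox gene Pknox1 -0.15 ± 0.11 and 0.40 ± 0.11, which are the signs of the pair at smaller size. No neighbour passed the test in Myc TTP over Myc or in TTP over wild type, where 0 of all genes passed. In Myc over wild type Ubash3a and Tmprss3 passed (limma adjusted p = 0.0479 for each), as did the pair. Of all genes 10.6% were called lower there. Pde9a, next to Slc37a1, and Tff2, Tff3 and Cbs were on the array but not above the floor, so they were not tested.

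**Figure D2:**
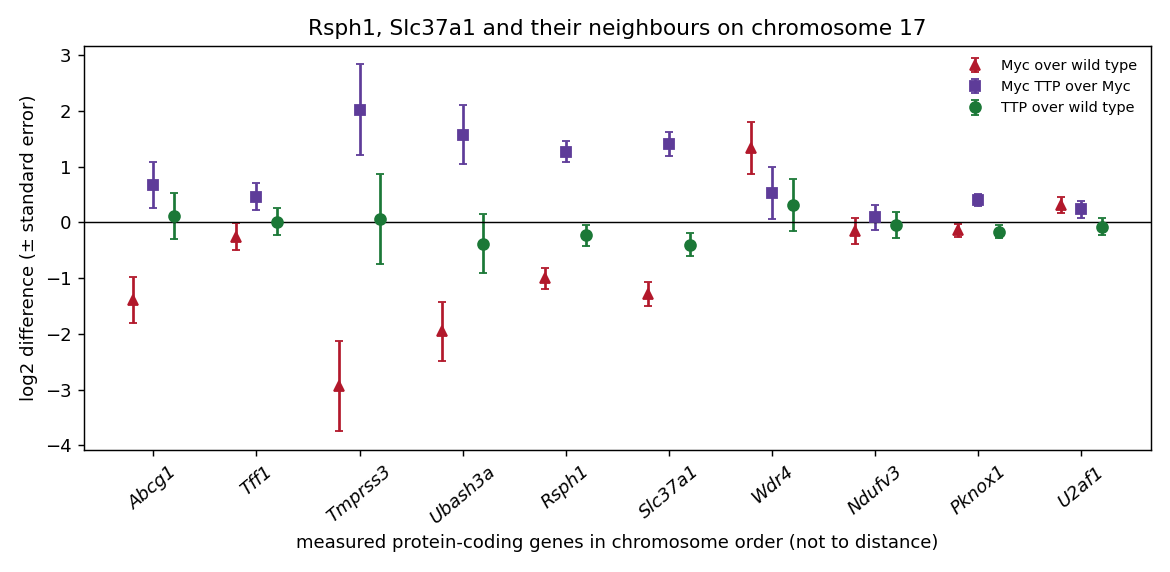
Log2 difference (y axis, bars are standard errors of the fit) of the measured genes around Rsph1 and Slc37a1 in their order on chromosome 17 (x axis, without distances). From Abcg1 to Slc37a1 Myc over wild type is below 0 and Myc TTP over Myc above it (2.02 for Tmprss3 and 1.41 for Slc37a1). From Wdr4 onward this pairing of signs holds for Ndufv3 (-0.15 and 0.09) and Pknox1 (-0.15 and 0.40), both near 0 with Myc alone. The medians of all genes have these signs too.

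Pogk encodes a nuclear protein with a KRAB domain, a repressor module, and a region derived from a pogo transposable element. Its main probe set read 7.53, 7.65 and 7.76 in wild type, 7.39, 6.99 and 7.29 with TTP, 7.18, 6.87 and 6.95 with Myc, and 8.05, 7.90 and 8.01 with both. Either transgene alone therefore lay below wild type without overlap, and both together lay above it. The differences were -0.42 ± 0.17 for TTP over wild type, -0.65 ± 0.17 for Myc over wild type and 0.99 ± 0.17 for Myc TTP over Myc, the last being 0.72 with a common array median. A second probe set differed less, by -0.09 ± 0.16, -0.14 ± 0.16 and 0.12 ± 0.16. For the last the groups were separated only by the gap between 6.4525 on Myc 3 and 6.4553 on Myc TTP 1. The suffix of the main probe set (s) means that its probes can match more than 1 transcript. A further probe set that the annotation shares between Pogk and Tada1 was assigned to neither.

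Myc and Max bind the E-box, whose letters are CACGTG on both strands, and the promoters of the members were searched for it. RefSeq promoter windows (GRCm38.p6, 300 bases, from 250 before to 50 after a gene's start) were given for 7 of the 8 genes, Rsph1 being the exception, and 2 genes, Pogk and S100a6, held the motif. The 7 genes had 10 windows, with 1 each for Pogk and S100a6. Of all 32851 windows in the table, 7.15% held it, a share of windows and not of genes. Both windows are shown up to 30 bases after the start, since these genes differed in opposite directions in Myc TTP over Myc, with the E-box in capitals. In Pogk it begins 3 bases before the start, and in S100a6 at base 15 of the transcript. The match is a description of the sequence, and binding was not measured.
Pogk (chr1:166409799-166410078, minus strand): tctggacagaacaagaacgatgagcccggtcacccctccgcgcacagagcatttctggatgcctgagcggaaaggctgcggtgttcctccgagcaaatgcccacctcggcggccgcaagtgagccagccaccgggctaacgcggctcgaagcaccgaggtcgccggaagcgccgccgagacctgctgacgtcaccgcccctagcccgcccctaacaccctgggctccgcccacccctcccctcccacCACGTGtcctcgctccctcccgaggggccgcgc
S100a6 (chr3:90612644-90612923, plus strand): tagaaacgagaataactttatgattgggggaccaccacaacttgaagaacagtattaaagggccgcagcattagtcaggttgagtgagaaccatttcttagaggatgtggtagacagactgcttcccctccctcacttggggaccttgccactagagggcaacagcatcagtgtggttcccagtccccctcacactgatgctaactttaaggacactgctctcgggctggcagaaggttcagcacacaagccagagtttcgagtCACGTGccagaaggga

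S100a6 (calcyclin) is a small calcium-binding protein with EF-hand motifs. It had the largest difference of the 8 genes with TTP under Myc, and it was lower. The log2 values were 9.88, 11.02 and 10.004 in wild type, 11.06, 11.48 and 9.62 with TTP, 9.95, 11.41 and 9.84 with Myc, and 8.37, 7.91 and 7.98 with both. The first 3 groups overlapped widely, and the Myc TTP arrays were below all 9 others. Myc TTP over Myc was -2.31 ± 0.53, that is 4.97-fold lower, and Myc TTP over TTP was -2.64 ± 0.53. Myc over wild type was 0.10 ± 0.53 and TTP over wild type 0.42 ± 0.53, the latter between 0.04 without TTP 2 and 0.97 without TTP 3. S100a6 is also made by cells outside the B lineage. For 14 granulocyte markers the median difference of Myc TTP over Myc was 2.32, 0 passed, and for all 14 the groups overlapped. The array Myc 3 read far above Myc 1 and Myc 2, as for Ngp, a neutrophil granule protein, at 10.06, 11.60 and 15.26 on Myc 1, 2 and 3 and 14.85, 14.19 and 14.27 on the Myc TTP arrays. For 8 monocyte and macrophage markers the median difference of Myc TTP over Myc was 0.58, and 0 passed. Of these Csf1r was lower, at -1.07 ± 0.38, and the others were higher. The part of granulocytes, monocytes and macrophages in the S100a6 values was not tested.

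Rem2 belongs to the RGK family of small GTPases, which bind the β subunits of voltage-gated calcium channels and reduce the current. It read 7.10, 7.33 and 7.27 in wild type, 7.95, 7.47 and 7.36 with TTP, 5.46, 6.47 and 7.01 with Myc, and 7.75, 7.71 and 7.34 with both. The 3 Myc values were the lowest of the 12 and spread over more than 1 log2 unit, with the array Myc 1 far below the others. Myc TTP over Myc was 1.29 ± 0.34, and 0.86 without Myc 1. Myc TTP over TTP was 0.01 ± 0.34. TTP over wild type was 0.36 ± 0.34 with no overlap, by a margin of hundredths between 7.36 and 7.33. A second Rem2 probe set was below the floor on all 12 arrays.

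Rapgef5 is a guanine nucleotide exchange factor, which loads Rap GTPases with GTP. The values were 7.42, 7.88 and 7.70 in wild type, 8.15, 8.20 and 7.99 with TTP, 7.92, 7.92 and 7.68 with Myc, and 8.54, 8.62 and 8.39 with both. Each TTP group was above its partner without overlap. The difference was 0.45 ± 0.17 without Myc and 0.68 ± 0.17 with Myc, and the latter was 0.41 with a common array median. A second probe set gave 0.32 ± 0.15 and 0.51 ± 0.15, again without overlap in either background, and the remaining one was below the floor on all 12 arrays.

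Sspn (sarcospan) is a membrane-spanning protein that stabilises the dystrophin-glycoprotein complex at the muscle cell surface. It read 6.81, 7.23 and 7.00 in wild type, 5.81, 6.27 and 6.36 with TTP, 7.13, 7.85 and 7.08 with Myc, and 6.80, 6.46 and 6.61 with both. TTP arrays were below those without the transgene in both backgrounds, by 0.86 ± 0.25 log2 units without Myc and by 0.73 ± 0.25 with Myc. The latter became -0.48 without the array Myc 2, which read highest. The second Sspn probe set was below the floor throughout.

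Fbxw2 is an F-box protein with WD40 repeats that brings substrates to the SCF ubiquitin ligase. Its main probe set read 10.20, 10.07 and 10.24 in wild type, 9.71, 9.16 and 9.74 with TTP, 9.81, 9.79 and 9.92 with Myc, and 9.20, 9.78 and 9.55 with both. Wild type was the highest group, and Myc and Myc TTP were separated by only the small gap between 9.79 and 9.78. The difference was -0.63 ± 0.19 without Myc and -0.33 ± 0.19 with Myc, and the latter was -0.18 without the array Myc TTP 1.

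The 7 probe sets of Fbxw2 disagreed. The probe set with the next highest mean read 9.39, 9.45 and 9.33 with Myc and 10.05, 9.80 and 9.56 with both, which is 0.42 ± 0.18 higher and without overlap, opposite to the main one. In wild type it read 9.70, 9.87 and 9.80 and with TTP 9.89, 9.74 and 9.22, a difference of -0.17 ± 0.18. Another, the one with the largest spread over the arrays, gave 0.40 ± 0.25 with Myc and -0.10 ± 0.25 without it. The suffix of the main probe set (x) means that some of its probes also match other sequences, so neither direction is assigned to the gene.

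**Figure D3:**
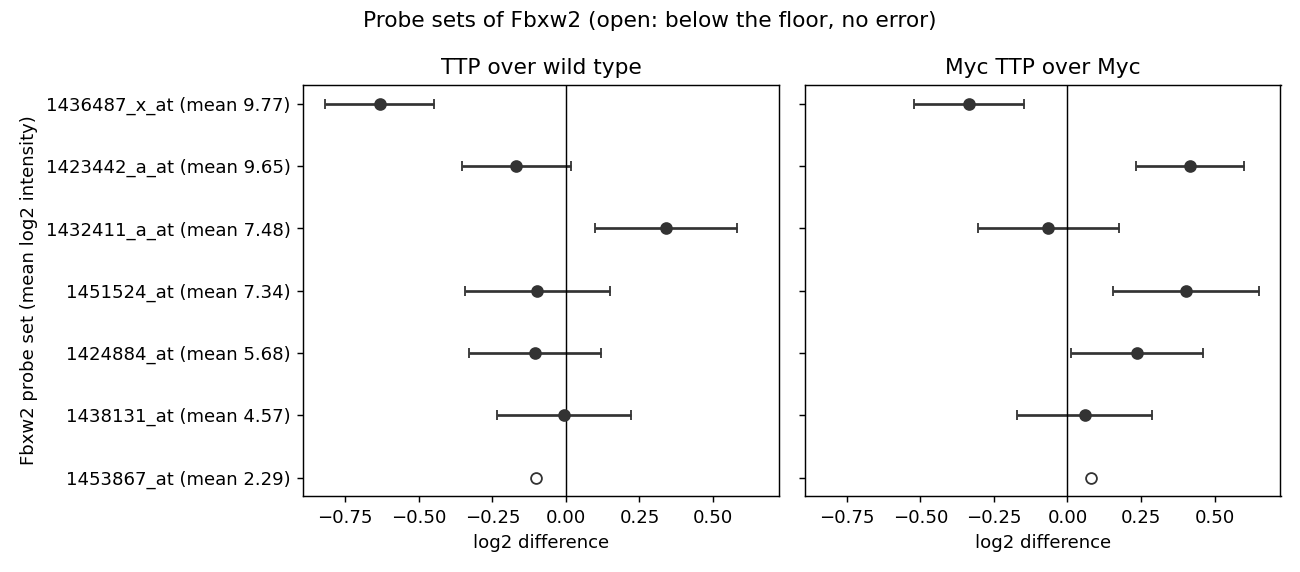
Log2 difference (x axis, bars are standard errors of a fit of every probe set) for the 7 probe sets of Fbxw2 (y axis), left TTP over wild type and right Myc TTP over Myc. In Myc TTP over Myc the top probe set is at -0.33 and the next at 0.42, and the open symbol is a probe set below the floor, without an error.

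Whether the TTP difference also appears without Myc was tested on the wild-type and TTP arrays, which share no array with Myc TTP over Myc. For Sspn and Fbxw2 this is only a description. Their ranks by p in TTP over wild type were 11 and 13 of 10287, above their ranks in the Myc background, so this comparison may have entered their choice, as it may have for Rapgef5 at rank 52 and Pogk at rank 76. Of the 8 genes 0 were called (limma, adjusted p = 1.00 for each), as were 0 of all tested genes (0%), of which 149 had an unadjusted p below 0.05. The model without moderation called 0 as well. The 95% confidence interval was -0.87 to 0.07 for Slc37a1, -0.66 to 0.19 for Rsph1, -0.74 to 1.58 for S100a6 and -0.39 to 1.11 for Rem2. After removal of wild type 3 and TTP 3, the arrays with high Myc, the TTP difference was -0.20 for Slc37a1, -0.12 for Rsph1, 0.82 for S100a6, -0.40 for Pogk, 0.49 for Rem2, -0.98 for Sspn, 0.52 for Rapgef5 and -0.70 for Fbxw2. All 8 signs were as before, and 0 of the 8 genes were called. With the 4 arrays numbered 3 left out, Myc TTP over Myc was 1.47 for Slc37a1, 1.41 for Rsph1, -2.54 for S100a6 and 1.76 for Rem2.

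By overlap alone, 6 members were separated in TTP over wild type, Rem2 and Rapgef5 upward and Slc37a1, Pogk, Sspn and Fbxw2 downward. Of all genes 0.603% were separated upward and 3.65% downward. Nothing is read from the count of members, since this comparison may have entered the choice of Pogk, Sspn, Rapgef5 and Fbxw2. Slc37a1 and Rem2 were separated only by the small gaps given above. Rsph1 and S100a6 overlapped. Of the 8 genes, Rem2, Rapgef5, Sspn and the main probe set of Fbxw2 had the same sign with and without Myc, and Slc37a1, Rsph1, S100a6 and Pogk had opposite signs. The TTP difference with Myc minus that without Myc was 1.80 ± 0.30 for Slc37a1, 1.499 ± 0.27 for Rsph1, 1.41 ± 0.24 for Pogk and -2.73 ± 0.74 for S100a6. It was 0.93 ± 0.48 for Rem2 and 0.50 without Myc 1. It was 0.30 ± 0.26 for Fbxw2, 0.23 ± 0.24 for Rapgef5 and 0.14 ± 0.36 for Sspn. These values hold the comparison on which the members were chosen and carry no test, and across all genes 0 were called for this difference (0%, limma), with 1351 at an unadjusted p under 0.05. With the 4 arrays numbered 3 left out, 235 of 10287 genes were called for it, 3 of them members (Slc37a1, Rsph1 and S100a6). Nothing is read from these 3, since the difference holds the comparison used to choose the members. With a common array median it was -0.02 for Fbxw2, -0.09 for Rapgef5 and -0.19 for Sspn.

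**Figure D4:**
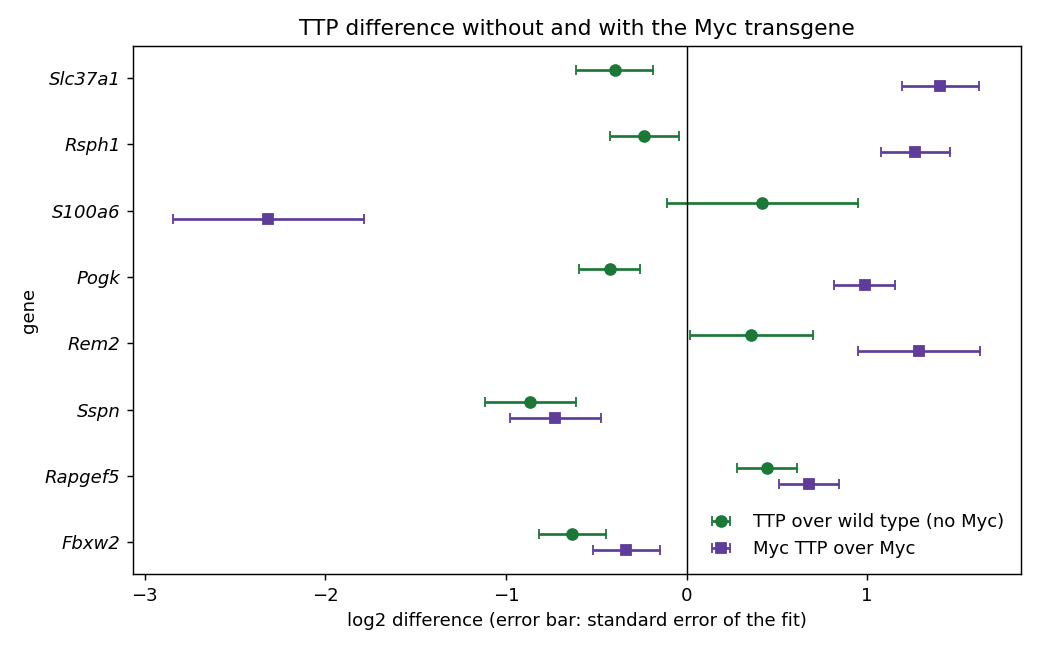
Log2 difference with TTP (x axis, bars are standard errors of the fit) for each gene (y axis), without Myc (circles, TTP over wild type) and with Myc (squares, Myc TTP over Myc). The circles lie between -0.86 and 0.45 and the squares between -2.31 and 1.41, and they stand on opposite sides of 0 for Slc37a1, Rsph1, S100a6 and Pogk.

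The remaining pair of comparisons shares arrays with those above and is given as values. In Myc over wild type 5 members were lower and 3 higher, and the groups did not overlap for 5 of them, Slc37a1, Rsph1, Pogk, Rem2 and Fbxw2, all lower. Of all genes, 41.3% were separated downward and 3.49% upward in that comparison. With a common array median 3 members were separated downward and 2 upward, against 17.8% and 23.4% of all genes. Rem2 was -0.92 ± 0.34, and -0.50 without Myc 1. Sspn was 0.34 ± 0.25, and 0.09 without Myc 2, and Rapgef5 0.17 ± 0.17. In Myc TTP over TTP 6 members were higher and 2 lower. Slc37a1, Rsph1, Pogk, Sspn and Rapgef5 were separated upward and S100a6 downward, against 30.6% and 5.36% of all genes. Slc37a1 was 0.52 ± 0.21 there, and 0.26 without TTP 3. Rsph1 was 0.50 ± 0.19, Pogk 0.76 ± 0.17, Sspn 0.48 ± 0.25 and Rapgef5 0.40 ± 0.17. The limma test called 0 genes in Myc TTP over TTP (0%), where 3707 had a raw p below 0.05, and the model without moderation called 5. This count rests on single arrays, with 3951 genes called without TTP 3, 1907 without the array labelled wild type 3 and 4412 without both.

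The order of the group means differed among the members. Slc37a1, Rsph1 and Pogk ran from Myc, the lowest, through TTP and wild type to Myc TTP. In Rsph1 TTP overlapped wild type, and wild type overlapped Myc TTP, and in Pogk Myc and TTP did. In Slc37a1 wild type and Myc TTP overlapped. Rapgef5 ran from wild type through Myc and TTP to Myc TTP, with wild type and Myc overlapping. Sspn ran from TTP through Myc TTP and wild type to Myc, with wild type and Myc overlapping. Rem2 was lowest with Myc, and TTP and Myc TTP had means of 7.59 and 7.60 that overlapped. S100a6 was lowest in Myc TTP, and its other groups overlapped. Fbxw2 ran from Myc TTP and TTP, which overlapped, through Myc to wild type.

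For each member the genes with the most similar pattern were found by the root mean square difference of gene-centred log2 values over the 12 arrays, which is in log2 units. For S100a6 the nearest was S100a4, a family member, at 0.52 against a spread of 1.21 for S100a6 around its own mean. The group means of S100a4 were 6.99, 7.27, 7.13 and 5.69 in wild type, TTP, Myc and Myc TTP, so that it too was lowest with both transgenes. Bank1, a B-cell scaffold protein, and Ahnak, a giant scaffold protein, followed at 0.52 and 0.53. For Slc37a1 the nearest were Chst3, a sulfotransferase, at 0.23, Nat9 at 0.25 and Rragd, a Rag GTPase of the mTORC1 pathway, at 0.25. Nat9 was also among the nearest to Rsph1, at 0.23, with Ndufaf3, an assembly factor of respiratory complex I, at 0.23 and Pard6g, a polarity protein, at 0.23. Rragd was also near Rem2, at 0.29, after Sapcd1 at 0.28 and before Aldh1b1, a mitochondrial aldehyde dehydrogenase, at 0.31.

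Pogk was closest to Ypel2 at 0.18, Ints1, a subunit of the Integrator complex, at 0.19 and Coq7, an enzyme of ubiquinone synthesis, at 0.20. Rapgef5 was closest to Bcl2l11, which encodes the pro-apoptotic protein BIM, at 0.15, Txnrd2, a mitochondrial thioredoxin reductase, at 0.15 and Gtpbp1 at 0.16. The group means of Bcl2l11 were 9.64, 9.85, 9.73 and 10.35 in the order above. For Sspn the nearest were the phosphatase Cdc14b at 0.26, the small GTPase Diras2 at 0.34 and Bnip5 at 0.34. For Fbxw2 they were Zc3hav1, an antiviral RNA-binding protein, at 0.18, Cmpk1, a nucleoside monophosphate kinase, at 0.21 and Zfp407 at 0.22. These distances rank genes on the arrays at hand, which share the array properties described above, and are no test.

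Genes related to the members by family or complex did not pass in Myc TTP over Myc or Myc TTP over TTP, nor did they in TTP over wild type. In Myc over wild type 5 of 66 tested related genes passed, 1 higher and 4 lower, where 0.467% of all genes were called higher and 10.6% lower. The count was 0 when any 1 of 8 arrays was left out, 10 without Myc 3 or TTP 2, 21 without the array labelled wild type 3 and 26 without TTP 3. Markers of granulocytes moved in the same comparison, with a median difference of -4.39 over 14 genes, of which 8 fell. Of 12 B-lineage markers 8 fell too (median -0.81), as did 7 of 8 plasmacytoid dendritic cell markers (median -2.92). All 7 marker lists had a median below that of all genes, and none held a gene called higher. The part of these cells was not tested.

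Among 10 tested S100 proteins and S100A6 partners S100a10, which forms a complex with annexin A2, rose by 0.52 ± 0.14 (limma adjusted p = 0.0479), and 9 did not pass. Their median was -0.64 in Myc over wild type, against -0.21 over all genes. In Myc TTP over Myc it was 0.23, against 0.27. S100a4 was -1.44 in that comparison and S100a8, a neutrophil protein, 1.56, so the family did not share one direction. Cacybp, the calcyclin-binding protein, was 0.07.

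Of the genes of motile cilia beside Rsph1, 14 of 17 on the array were not above the floor, Foxj1, the master regulator of motile cilia, among them. Of the 3 tested genes Rsph9, another radial spoke head protein, fell by 1.54 ± 0.41 with Myc relative to wild type (adjusted p = 0.0479) and was 0.73 in Myc TTP over Myc. The SLC37 relatives Slc37a4, the glucose 6-phosphate transporter of the liver, and Slc37a3 were 0.50 and 0.08 in Myc TTP over Myc. In Myc over wild type they were 0.02 and -0.08. Slc37a2 was 0.43 ± 0.51 in Myc TTP over Myc and -1.63 ± 0.51 in Myc over wild type, the signs of Slc37a1. The last gene of that list, G6pc3, was 0.40 and 0.41, and 0 of 4 tested genes passed. Among 9 pogo-like and KRAB corepressor genes Tigd2 fell by 0.60 ± 0.17 with Myc (adjusted p = 0.0479). Trim28, the corepressor that KRAB domains recruit, was 0.04 there and 0.32 in Myc TTP over Myc.

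Of 17 Rap GTPases and regulators 2 fell with Myc relative to wild type, Rapgef2, by 1.45 ± 0.40 (adjusted p = 0.0479), and Rap2c, by 0.84 ± 0.24 (adjusted p = 0.0482). In Myc TTP over Myc they were 0.73 and 0.07. Of 2 tested genes of the Rem2 list, Gem, another RGK protein, was -1.36 in Myc over wild type and 0.57 in Myc TTP over Myc, and the channel subunit Cacnb1 was -0.61 and 0.55. For the other 6 genes of that list on the array the main probe set was not above the floor, among them the channel pores Cacna1c, Cacna1d and Cacna1s. Of 7 tested genes of the dystrophin complex 0 passed, and Dmd, dystrophin itself, was not above the floor, while Dag1 and Utrn were tested, at 0.03 and 0.29 in Myc TTP over Myc. Of 14 genes of the SCF ligase and FBXW proteins 0 passed. Their median in Myc TTP over Myc was 0.26, against 0.27 over all genes. The genes of highest mean, Cks1b and Fbxw11, were -0.09 and 0.25 in that comparison. Skp1 was 0.23 and Cul1 0.27, and the largest difference was that of Btrc, at 0.59 ± 0.155.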

How the data were processed

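Values came from 12 Affymetrix MOE430 2.0 arrays. The submitters' processing notes name GCRMA, a probe summary with background correction (version and further steps not given in the sources used here), and the deposited values are intensity on a linear scale, from 1.73 to 120125. A change in total RNA per cell cannot be seen on such arrays. Log2 was taken with no pseudocount. Of 45101 probe sets, 34958 had 1 symbol, 932 several and 9211 none, and 34754 of the probe sets with 1 symbol were found in the RefSeq gene table (GRCm38.p6). A gene was its probe set of highest mean, tested when above a log2 floor of 4 on 3 arrays or more. limma 3.58.1 in R 4.3.3 (lmFit, eBayes with trend) fitted 4 group means with 8 residual degrees of freedom, two-sided, with calls at an adjusted p under 0.05. All adjusted p-values are from this fit. The script was checked on data with known changes.

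Members and lists were chosen with earlier results of these data known. The named genes were the members, Myc and Zfp36, related genes that were called or highest, and the 3 nearest patterns. Other relatives were named for their role, or to complete a list, after their values were seen. Residuals of same-numbered wild-type and TTP arrays correlated positively (0.498, 0.664 and 0.821). The correlations were negative for Myc TTP and Myc arrays (-0.398, -0.0286 and -0.309) and for Myc and wild-type arrays (-0.43, -0.28 and -0.63). For Myc TTP and TTP arrays they were 0.37, -0.06 and 0.50. The labels do not explain these correlations. The number of arrays limits the precision.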

Additional observations from a re-analysis of the deposited data

Results flagged for a closer look

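In Slc37a1 and Pogk the TTP arrays lay below wild type without overlap, in Slc37a1 only by the gap between 7.8353 and 7.8419, while the Myc TTP arrays lay above Myc without overlap. The TTP difference with Myc exceeded that without it by 1.80 log2 units in Slc37a1 and by 1.41 in Pogk. The difference between the backgrounds was not tested for these genes, because they were chosen on one side of it. In Slc37a1 the TTP difference without Myc was -0.40, and -0.14 without TTP 3.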

How the results depend on the processing

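No member was called in TTP over wild type under any alternative run. Over all genes TTP over wild type had 1 call with every probe set tested separately, with both arrays of high Myc outside the Myc groups (wild type 3, TTP 3) removed, and with the 4 arrays numbered 3 removed (0 to 1 when 1 array was left out). Myc TTP over Myc had 16 with an unmoderated model, 1 with a common array median, 1 and 1514 with those removals (0 to 28 on leaving out 1 array, 28 without Myc 3). Myc TTP over TTP had 1 without intensity trend, 5 unmoderated, 4412 and 4682 with the removals (0 to 3951). Myc over wild type, 1135 calls, had 0 with no filter, the probe set of largest SD, no trend, an unmoderated model, quantile normalization, a common median or the replicate block, 1 with every probe set, 2110 with only the arrays of the groups compared, 4965 and 5626 with the removals (0 to 3609). The 5 related genes called there became 0 in the former settings and with every probe set, 8 with a stricter floor of 6, 13 with only those arrays and 31 with either removal (0 to 26). The difference between backgrounds, whose count over all genes was added after seeing the data, had 235 calls with the arrays numbered 3 removed, 1 with every probe set and 0 in the other alternatives. With the replicate block the counts were 0 in every comparison, and the labels name no pairs. The calls of Myc over wild type were lost there as in several other settings above. In the main fit they held 3 members, all lower, where 10.6% of all genes were called lower. In TTP over wild type the block changed no call.

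Under Myc TTP over Myc 5 members were higher on leaving out any 1 array, 2 to 3 in Myc over wild type, 5 to 7 in Myc TTP over TTP and 6 to 7 for the difference between backgrounds, which was 4 with a common median. That difference was -0.15 and -0.19 for Sspn and -0.14 and -0.0908 for Rapgef5 with quantile normalization and a common median, and -0.0240 for Fbxw2 with a common median. For Sspn it was -0.0313 to 0.39 on leaving out 1 array. With the probe set of largest SD Fbxw2 was 0.40 in Myc TTP over Myc, as another probe set is read there. The cause of the other changes was not tested.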
